A study of Mus musculus with 7 samples.

Results

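A set of 9 genes for G protein-coupled receptors that sense lipid mediators, or whose ligands are less settled, was followed in OT1 cells taken from tumours grown in mice. The set was Ltb4r1, Ptger2, Ptger4, Ptgdr, Gpr183, Gpr18, Gpr171, Gpr55 and Gpr15, and its members were taken by gene name from the deposited count tables. Of the 9 names, 8 had a row among the 53656 gene rows analysed, and Gpr18 was not analysed here. Of these 8 genes 7 passed the filter on low counts that the test needs, and Ptgdr did not.

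OT1 cells are CD8 T cells whose transgenic receptor recognises an ovalbumin peptide. Sorting used CD8 and CD45.1 and started from B16-OVA-GP61 tumours, a mouse melanoma line that carries ovalbumin and the viral epitope GP61. The 4 libraries of one group came from tumours without SMARTA cells and the 3 of the other from tumours with them. SMARTA cells are CD4 T cells too, with a transgenic receptor that recognises GP61. Tumour line and transgenic CD8 cell were the same in every library. Host strain, age, cell dose and time of collection are not given in the sources used here. Whether each library stands for its own mouse is not stated either, so the p-values refer to the spread among these 7 libraries, and that spread may be technical.

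Libraries held 38092722 to 49438357 read pairs assigned to genes. Cd8a, Cd8b1 and Cd3e, which define the sorted cells, were present in all 7 libraries, with Cd8a at 1028 to 1948 CPM (counts per 1000000 assigned read pairs), while Cd4 reached at most 8.48 CPM. Summed erythroid markers reached 4829 CPM in replicate 1 with SMARTA and 9.72 to 223 CPM in the 6 other libraries. Of 15896 genes tested, 500 were called (quasi-likelihood test of edgeR, p adjusted after Benjamini and Hochberg under 0.05), which is 3.15%; 48.2% of the called genes were higher with SMARTA, against 29.1% of 561 genes when plain library totals replaced the trimmed-mean (TMM) scaling of libraries.

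Lipid mediators made from arachidonic acid act at short range on receptors of this class. Leukotriene B4 attracts leukocytes, activated T cells among them, through the receptor encoded by Ltb4r1. Prostaglandin E2 acts on T cells mainly through EP2 and EP4, products of Ptger2 and Ptger4, which couple to the stimulatory G protein and raise cyclic AMP, and Ptgdr encodes a receptor for prostaglandin D2 that couples the same way. Gpr183 encodes EBI2, which guides lymphocytes and dendritic cells along gradients of hydroxylated cholesterol. Gpr55 encodes a receptor for lysophosphatidylinositol, Gpr171 an orphan-like receptor for which a neuropeptide ligand has been proposed, and Gpr15 a homing receptor of T cells for the large intestine.

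Stretches of 250 bases before the transcription start of RefSeq (GRCm38.p6) are shown for 3 members whose libraries did not overlap between the groups: Ltb4r1 at chr14:55765712-55765961 on the plus strand, Gpr183 at chr14:121965194-121965443 on the minus strand and Ptger2 at chr14:44987861-44988110 on the plus strand. The fourth such member, Gpr171, had no entry. Each reads 5′ to 3′ towards the start, and capitals mark matches to 1 of 5 motifs.
Ltb4r1: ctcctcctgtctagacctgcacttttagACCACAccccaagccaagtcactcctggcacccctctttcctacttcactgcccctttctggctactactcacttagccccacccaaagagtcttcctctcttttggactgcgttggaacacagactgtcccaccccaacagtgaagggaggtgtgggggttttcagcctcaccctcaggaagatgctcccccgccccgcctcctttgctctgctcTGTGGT
Gpr183: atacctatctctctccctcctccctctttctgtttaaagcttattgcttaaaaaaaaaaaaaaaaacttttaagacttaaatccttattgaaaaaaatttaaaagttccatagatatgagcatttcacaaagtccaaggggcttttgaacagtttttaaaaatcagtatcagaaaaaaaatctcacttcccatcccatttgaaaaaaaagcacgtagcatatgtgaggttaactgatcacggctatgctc
Ptger2: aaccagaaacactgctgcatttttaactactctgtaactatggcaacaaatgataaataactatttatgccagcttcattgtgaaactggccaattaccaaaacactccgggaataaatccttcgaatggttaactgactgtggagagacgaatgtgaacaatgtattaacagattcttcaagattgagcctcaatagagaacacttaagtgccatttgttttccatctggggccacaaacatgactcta
The motifs searched on both strands were TGACGTCA (cyclic AMP response element), TGANTCA (AP-1), the interferon-stimulated response element, CTTTGA (TCF/LEF) and TGTGGT (RUNX). Ltb4r1 held 2 RUNX matches, beginning 222 and 6 bases before the start, and neither the Gpr183 nor the Ptger2 stretch held a match to any of the 5. A RUNX match occurred in 14% of all 32851 stretches of this length, and the cyclic AMP response element in 1.55%. Guanine and cytosine made up 56.8% of the Ltb4r1, 32% of the Gpr183 and 38% of the Ptger2 stretch, against a median of 52.4%. A match describes letters only and is not a bound site.

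Among the members, transcript of the leukotriene B4 receptor gene Ltb4r1 was 9.69-fold higher in OT1 cells from tumours with SMARTA cells and was the single member called. Gpr183, Gpr171 and Ptger2 also separated the groups without overlap, the first pair higher and Ptger2 lower with SMARTA, but these did not pass the test. Ptger4, Gpr55 and Gpr15 overlapped between the groups, and Ptgdr had no count. The call of 1 of 7 tested members as higher stands beside 1.52% of all genes called higher, and 1.63% called lower. The separation without overlap of 4 of 7 stands beside 19.2% of all genes. The log2 fold change (with minus without SMARTA) was positive for 5 of these 7, with a median of 1.03 against −0.00 over all genes. In bulk RNA, more cells with a transcript and more transcript per cell cannot be told apart.

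**Figure D1:**
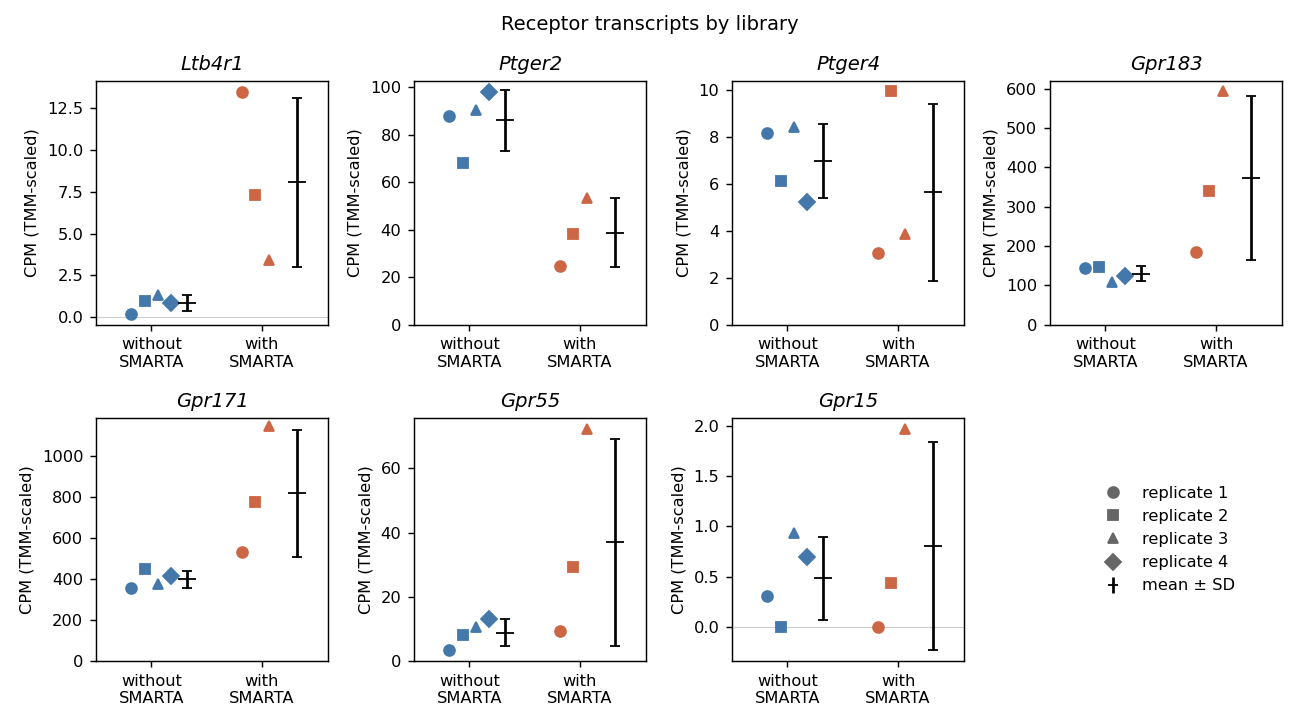
Transcript level of the 7 tested receptor genes, in TMM-scaled CPM, by group; each symbol is 1 library and the bars give mean ± SD (n = 4 without and 3 with SMARTA). Ltb4r1, Gpr183 and Gpr171 lie higher and Ptger2 lower in all 3 libraries with SMARTA than in the 4 others, whereas Ptger4, Gpr55 and Gpr15 overlap.

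Ltb4r1 (chromosome 14, 55765962 to 55768494 on the plus strand, GRCm38) was at 0.203, 0.979, 1.30 and 0.844 CPM in replicates 1 to 4 without SMARTA, from 10, 45, 64 and 40 counts. With SMARTA it was at 13.5, 7.33 and 3.41 CPM in replicates 1, 2 and 3, from 636, 304 and 116 counts. Every library with SMARTA thus lay above every library without, and the means were 0.83 ± 0.46 and 8.07 ± 5.08 CPM (SD, n = 4 and 3). The gene rose by 3.28 ± 0.67 on the log2 scale (SE; edgeR adjusted p = 0.0424). The call was lost in each of the 7 fits that leave out 1 library (edgeR adjusted p from 0.0588 to 0.125), with log2 fold changes from 2.69 to 3.61.

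Neutrophils, macrophages and eosinophils are known to carry this receptor too. Of the 9 neutrophil markers 5 were tested and 0 called, and their summed level was 3.19 to 64.9 CPM without and 0.844 to 3.72 CPM with SMARTA. None of the 12 macrophage and monocyte markers was at 0 in all libraries; of the 11 tested 0 were called. Their sum was 83.1 to 185.5 CPM without SMARTA, and with SMARTA it was 200, 34.2 and 36.4 CPM for replicates 1, 2 and 3. Mast cell and eosinophil markers, of which Mcpt4 and Fcer1a had no count, summed to 11.7 to 20.1 CPM without and to 17.3, 2.44 and 4.38 CPM with SMARTA. Of the 3 tested 1 was called, Siglecf, beside 1.63% of all genes called lower. It fell by 5.30 on the log2 scale (edgeR adjusted p = 0.0424). The other tested members of that list had positive log2 fold changes, 1.49 for Cpa3 and 1.92 for Ccr3 (edgeR adjusted p = 0.383 and 0.238), and the median of the 3 was 1.49. Without Siglecf the list summed to 1.31 to 2.68 CPM in the group lacking SMARTA. In the other group that sum was 17.3, 2.27 and 3.62 CPM for replicates 1, 2 and 3. The eosinophil granule gene Epx, too low to be tested, had 0 counts in the 4 libraries lacking SMARTA. It had 47, 25 and 7 counts in replicates 1, 2 and 3 of the others. Of the same list, Prg2 had 0, 6 and 0 counts in those 3, Siglecf 0, 7 and 29, and Ccr3 592, 34 and 114. These counts and the sum without Siglecf were chosen after the data were seen. The part of eosinophils in the Ltb4r1 values was not tested.

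In replicates 2 and 3 with SMARTA the neutrophil and macrophage sums lay below, and Ltb4r1 above, every library lacking SMARTA. In replicate 1 with SMARTA Ltb4r1, macrophage markers and erythroid markers were all at their highest. Without that library the Ltb4r1 log2 fold change was 2.69. The part of neutrophils, macrophages and erythroid cells in the Ltb4r1 values was not tested.

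The neighbouring gene of the low-affinity leukotriene B4 receptor, Ltb4r2, had 0 to 7 counts per library. No exon base of Ltb4r1 is shared with another gene of the annotation.

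The EP2 gene Ptger2 (chromosome 14, 44988195 to 45003820, plus strand) was at 88.1, 68.04, 90.4 and 98.1 CPM in replicates 1 to 4 without SMARTA. It was at 24.7, 38.1 and 53.6 CPM in replicates 1, 2 and 3 with SMARTA. The highest library with SMARTA lay below the lowest without. The means were 86.2 ± 12.8 and 38.8 ± 14.5 CPM (SD, n = 4 and 3), a log2 fold change of −1.15 ± 0.29 (SE; edgeR adjusted p = 0.0691). It passed at −1.31 (edgeR adjusted p = 0.0385) with plain library totals, which also moved the median over all genes to −0.16. Ptger2 was called in 0 of the 7 fits that leave out 1 library (edgeR adjusted p from 0.0588 to 0.203). Its log2 fold changes in these fits ran from −1.47 to −0.93.

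The EP4 gene Ptger4 (chromosome 15, 5206661 to 5244187, minus strand) was at 8.17, 6.11, 8.43 and 5.21 CPM in replicates 1 to 4 without SMARTA and at 3.05, 9.98 and 3.88 CPM in the 3 libraries with it. Replicate 2 with SMARTA was the highest of all 7 libraries and the other 2 were the lowest. The log2 fold change was −0.31 ± 0.46 (SE; edgeR adjusted p = 0.785), and −1.01 (edgeR adjusted p = 0.304) without replicate 2 with SMARTA. Of its exon bases 16.5% are shared with Ttc33 or a further gene model, and read pairs in that stretch were not assigned to either.

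The balance of both EP receptors was compared within each library, which needs no scaling between libraries. Counts of Ptger2 exceeded those of Ptger4 by 10.8, 11.1, 10.7 and 18.8 times in replicates 1 to 4 without SMARTA, and by 8.06, 3.82 and 13.8 times in replicates 1, 2 and 3 with it. The mean log2 ratio was 3.64 ± 0.40 without and 2.91 ± 0.93 with SMARTA (SD), a difference of −0.73 (two-sided exact permutation test over 35 splits, p = 0.2; the smallest p possible is 0.0286). A shift in the balance was thus not detected with these few libraries, which does not show that there was none. This ratio compares counts, not levels per length.

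Ptgdr (chromosome 14, 44851235 to 44859375, minus strand), next to Ptger2 in the genome, had 0 counts in all 7 libraries. A count of 0 allows a level of up to 0.0608 to 0.0882 CPM per library, taken as 3 counts and covering counting error only. A gene model that overlaps it takes up 22.1% of its exon bases.

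Gpr183 (chromosome 14, 121952551 to 121965195, minus strand) was at 143.7, 146.7, 107.5 and 123 CPM in replicates 1 to 4 without SMARTA. With SMARTA it was at 183.8, 340.1 and 595 CPM in replicates 1, 2 and 3. The libraries without SMARTA lay close together, with a coefficient of variation of 14.2%, and those with SMARTA were spread over a coefficient of 55.7%, all above them. The fitted difference was 2.86-fold, a log2 fold change of 1.52 ± 0.35 (SE), and it did not pass (edgeR adjusted p = 0.0554). It passed at 1.82 without replicate 1 with SMARTA (edgeR adjusted p = 0.00996) and fell short at 0.99 without replicate 3 with SMARTA (edgeR adjusted p = 0.171).

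The gene lies inside the span of Ubac2 on the opposite strand, with no shared exon base. Counting was without strand, so unspliced Ubac2 RNA across Gpr183 exons would count as Gpr183. The part of such RNA in the Gpr183 values was not tested. Ubac2 was at 183 to 237 CPM without SMARTA and at 488, 285 and 241 CPM in replicates 1, 2 and 3 with it. Dendritic and B cells are known to express Gpr183. Dendritic cell markers (7 genes, 4 tested, 0 called) had a sum of 60.6 to 222 CPM without SMARTA. With SMARTA the sum was 433.7, 145.7 and 220.4 CPM for replicates 1, 2 and 3. Most of it was Itgax, with means of 120 CPM without and 254 CPM with SMARTA. Clec9a, Flt3 and Cd209a had at most 57 counts in a library. B cell markers summed to 10.4 to 40.8 CPM without and 11.5 to 61.6 CPM with SMARTA. Replicate 1 with SMARTA, with the highest dendritic sum, had the lowest Gpr183 level of its group. Markers of CD4 and regulatory T cells, 0 of 4 called, summed to 76.01 ± 24.9 CPM without and 129.6 ± 10.0 CPM with SMARTA (SD), most of it Cd40lg. The sums for NK and gamma-delta T cells (255 ± 52.2 and 431.5 ± 60.7 CPM) and for stromal and endothelial cells (111 ± 24.0 and 185.7 ± 31.0 CPM) did not overlap either. Of the former 1 of 6 tested was called higher, beside 1.52% of all genes, and of the latter 0 of 7. Trdc made up most of the former (180 and 379 CPM) and Pecam1 most of the latter (88.6 and 175 CPM). These 2 sums thus rest mainly on single genes. The part of these markers in the values of Gpr183 and of the other receptors was not tested.

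Gpr171 (chromosome 3, 59096448 to 59101821, minus strand) was at 355.6, 449, 378 and 417 CPM in replicates 1 to 4 without SMARTA. With SMARTA the 3 replicates were at 531, 774 and 1146 CPM. No library overlapped, and replicate 3 with SMARTA was again the highest. The log2 fold change was 1.03 ± 0.25 (SE; edgeR adjusted p = 0.0654), a 2.04-fold difference. It passed without replicate 1 with SMARTA, at 1.24 (edgeR adjusted p = 0.016), and was smallest, at 0.69, without replicate 3 with SMARTA. Pcsk1n, the gene of the proposed neuropeptide ligand, had no count in any library.

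Gpr55 (chromosome 1, 85938318 to 85961007, minus strand) was at 3.32, 8.09, 10.7 and 13.2 CPM in replicates 1 to 4 without SMARTA and at 9.33, 29.3 and 72.3 CPM in replicates 1, 2 and 3 with it. Replicate 1 with SMARTA fell within the range of the libraries without, and the other 2 lay above it. The log2 fold change was 2.07 ± 0.67 (SE; edgeR adjusted p = 0.139), and the 3 libraries with SMARTA had a coefficient of variation of 87.05%. Without replicate 1 with SMARTA the gene passed at 2.50 (edgeR adjusted p = 0.0355), and without replicate 3 with SMARTA it was at 1.13 (edgeR adjusted p = 0.424).

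Gpr15 (chromosome 16, 58717435 to 58718724, minus strand) had 15, 0, 46 and 33 counts in replicates 1 to 4 without SMARTA and 0, 18 and 67 counts in replicates 1, 2 and 3 with it. The highest level, in replicate 3 with SMARTA, was 1.97 CPM, and 1 library of each group had no count. The log2 fold change of 0.72 ± 1.56 (SE; edgeR adjusted p = 0.862) changed sign, to −1.12, without replicate 3 with SMARTA. Foxp3, which marks regulatory T cells that can carry Gpr15, had means of 4.42 ± 4.42 CPM in the group without SMARTA and 1.19 ± 1.07 CPM in the other (SD).

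**Figure D2:**
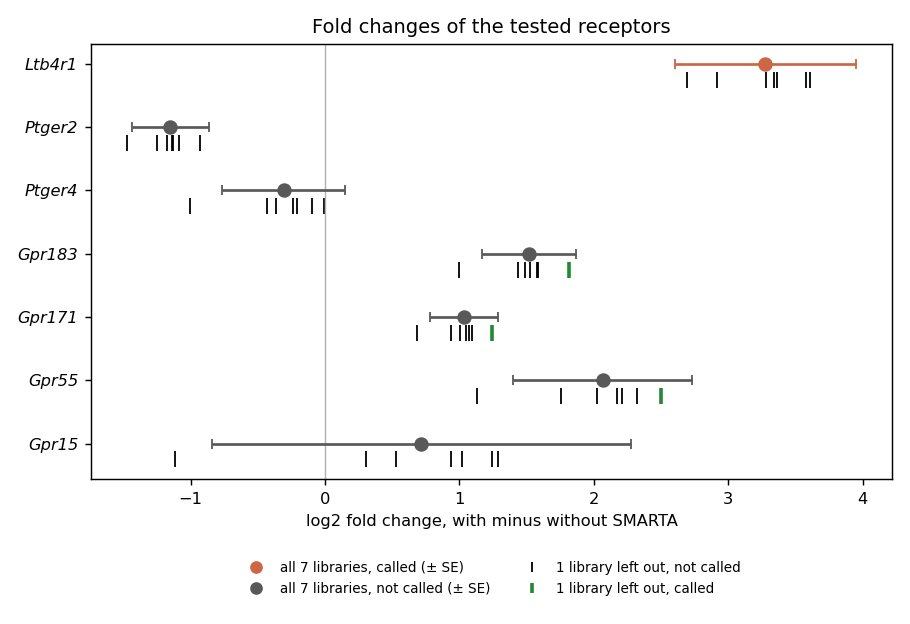
Log2 fold change (with minus without SMARTA) of each tested receptor with all 7 libraries, shown with its standard error, and below it a tick for each of the 7 fits that leave out 1 library. Ltb4r1 was called with all libraries and in none of the 7 reduced fits. Gpr183, Gpr171 and Gpr55 were each called in 1 of them, that without replicate 1 with SMARTA. Ptger2, Ptger4 and Gpr15 were called in none.

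Levels were compared between genes per length of all annotated exons, without correction for the isoforms in use. This length includes bases shared with other genes, 16.5% for Ptger4, 4.74% for Ptger2, 1.91% for Gpr55 and 0% for the other tested members. The order of genes is thus approximate. Per kilobase of exon (kb), Gpr171 stood first and Gpr183 second in all 7 libraries. Without SMARTA, Gpr171 was at 179.8 ± 18.7, Gpr183 at 45.11 ± 6.39 and Ptger2 at 16.6 ± 2.47 CPM per kb (SD, n = 4), and these 3 did not overlap. They were followed by Gpr55 at 2.37 ± 1.13, Ptger4 at 1.05 ± 0.24, Ltb4r1 at 0.60 ± 0.33 and Gpr15 at 0.38 ± 0.32 CPM per kb, neighbours whose ranges overlapped. With SMARTA, Gpr171 was at 367 ± 139 and Gpr183 at 129 ± 72.0 CPM per kb (SD, n = 3). Gpr55 at 9.93 ± 8.65, Ptger2 at 7.47 ± 2.79 and Ltb4r1 at 5.79 ± 3.64 CPM per kb overlapped. Their order was Ltb4r1, Ptger2 and Gpr55 in replicate 1, and Gpr55, Ptger2 and Ltb4r1 in replicates 2 and 3. Ltb4r1 thus stood below Ptger4 per kilobase in all 4 libraries without SMARTA and above it in all 3 with SMARTA.

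**Figure D3:**
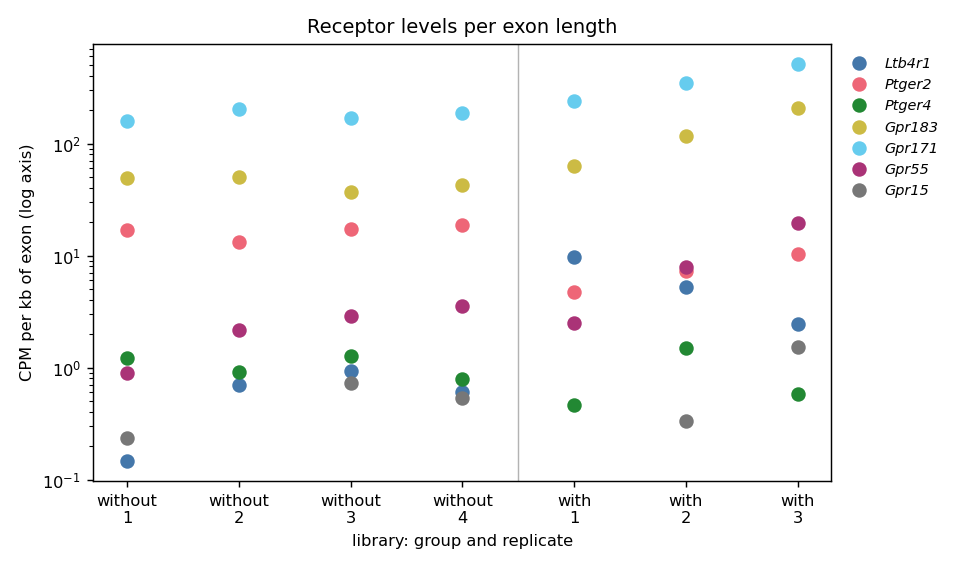
Levels of the 7 tested receptors per kilobase of exon, in CPM per kb on a log axis, for each library by group and replicate; zero values of Gpr15 in 2 libraries are not drawn. Gpr171 and Gpr183 are the top pair in every library, and Ltb4r1 stands below Ptger4 in the 4 libraries without and above it in the 3 with SMARTA.

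Replicate 3 with SMARTA held the highest level of Gpr183, Gpr171, Gpr55 and Gpr15, and replicate 1 with SMARTA the highest of Ltb4r1 together with the lowest of Ptger2 and Ptger4. The likeness of patterns was measured as the mean absolute difference between log2 CPM values centred per gene over the 7 libraries, among 7937 candidate genes of at least 3 log2 CPM. The rule for naming like genes covered called members above that level, of which there were none, so the genes below were chosen after their values were seen. Gpr183 was nearest to Rnf213 (0.149) and Oas1b (0.152), Gpr171 to Fam118a (0.0913) and Gpbp1l1 (0.0956). Gpr55 was nearest to Slfn8 (0.253) and Nt5e (0.323), and Ptger2 to Hirip3 (0.110) and Tns1 (0.146). Within the set, Gpr183 and Gpr171 differed by 0.262 on this measure. Gpr171 was 51st in order of nearness to Gpr183, and Gpr183 was 304th in nearness to Gpr171.

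Of 17 other receptors for lipids that were tested, 4 were called higher and 0 lower, beside 1.52% of all genes called higher, and the median log2 fold change was 1.07. Whether this differs from the receptor set was not tested. S1pr1, for sphingosine 1-phosphate, rose from 128 ± 40.8 to 715 ± 146 CPM (SD), a log2 fold change of 2.49 ± 0.29 (SE; edgeR adjusted p = 0.0119). Lpar6, for lysophosphatidic acid, rose from 38.1 ± 7.11 to 111.3 ± 10.5 CPM, a log2 fold change of 1.55 ± 0.21 (SE; edgeR adjusted p = 0.0166). Cnr2, the cannabinoid receptor of immune cells, rose from 8.93 ± 3.48 to 40.6 ± 12.6 CPM (2.18 ± 0.37; edgeR adjusted p = 0.0257). Gpr132, a receptor for oxidized and lysophospholipids, was at 38.3 to 52.6 CPM without SMARTA and at 142, 79.7 and 204 CPM in replicates 1, 2 and 3 with it (1.62 ± 0.31; edgeR adjusted p = 0.0367). In the 7 fits that leave out 1 library, S1pr1 stayed called in 6, Lpar6 in 4, Cnr2 in 2 and Gpr132 in 2. S1pr1 lost its call without replicate 4 lacking SMARTA, and Lpar6 without that library or replicate 2 or 3 with SMARTA. The 2 fits that called Cnr2 left out replicate 2 of the group lacking SMARTA, or replicate 1 of the other group. Those that called Gpr132 left out replicate 1 or 2 with SMARTA.

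Among 6 other tested eicosanoid receptors 0 were called by edgeR, with 1 at an unadjusted p under 0.05 and 5 with a positive log2 fold change. Over all 15896 genes, 2950 had an unadjusted p under 0.05 and 7913 a positive log2 fold change. Cysltr2, for cysteinyl leukotrienes, was at 45.4 ± 14.1 and 90.7 ± 46.9 CPM (1.00 ± 0.40; edgeR adjusted p = 0.229), and was called without replicate 1 with SMARTA. Ptger1, for the EP1 receptor, was at 1.69 ± 1.34 and 0.92 ± 0.33 CPM. Of 18 other tested orphan and proton-sensing receptors only the adhesion receptor Adgrg3 was called, beside 1.52% of all genes called higher. It rose from 3.72 ± 2.20 to 28.9 ± 9.42 CPM (2.95 ± 0.47, edgeR adjusted p = 0.0223). It stayed called in 3 of the 7 reduced fits, which left out replicate 1 or 2 of the libraries lacking SMARTA, or replicate 1 of the others.

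The enzymes that make and remove the ligands were mostly low or uncalled. Of 8 tested leukotriene genes 1 was called lower, beside 1.63% of all genes: Ptgr1, whose product inactivates leukotriene B4, was at 6.73 to 11.2 CPM without and at 1.76 to 3.44 CPM with SMARTA and fell by 1.84 ± 0.37 on the log2 scale (SE; edgeR adjusted p = 0.0413). It stayed called in 1 of the 7 fits that leave out a library, that without replicate 1 with SMARTA. Lta4h, which makes leukotriene B4, was at 383 ± 65.1 and 299 ± 43.3 CPM, whereas Alox5, the first enzyme of the route, had at most 42 counts in a library and no count in those with SMARTA. Of 13 tested genes of prostaglandin synthesis, transport and breakdown 0 were called by edgeR. An unadjusted p under 0.05 was found for 2 of them, beside 2950 of all 15896 genes. Hpgds was at 1.43 ± 0.64 and 4.15 ± 2.82 CPM and Ptgds at 3.02 ± 3.94 and 0.52 ± 0.21 CPM. Ch25h, Cyp7b1 and Hsd3b7, enzymes that make and degrade the EBI2 ligand, had at most 2 counts per library, and Cyp27a1 was at 0.83 ± 0.80 and 1.24 ± 0.70 CPM.

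Downstream of the receptors, 1 of 23 tested cyclic AMP genes and 2 of 16 tested genes of Gi and G12/13 signalling and desensitization were called, all higher, beside 1.52% of all genes called higher. Counts of 1 or 2 genes do not set these lists apart. Prkacb, a catalytic subunit of protein kinase A, rose from 279.6 ± 24.7 to 592 ± 140.9 CPM (1.08 ± 0.20; edgeR adjusted p = 0.0337). Gng2, a G protein gamma subunit, rose from 147.5 ± 12.0 to 325 ± 101.5 CPM (1.14 ± 0.23; edgeR adjusted p = 0.0421). Gna13, an alpha subunit, rose from 123 ± 21.7 to 264 ± 64.0 CPM (1.10 ± 0.23; edgeR adjusted p = 0.0424). Prkacb and Gng2 stayed called only without replicate 1 with SMARTA and Gna13 also without replicate 2 lacking SMARTA, of the 7 reduced fits. Gng2 and Gna13 were not called with plain library totals.

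**Figure D4:**
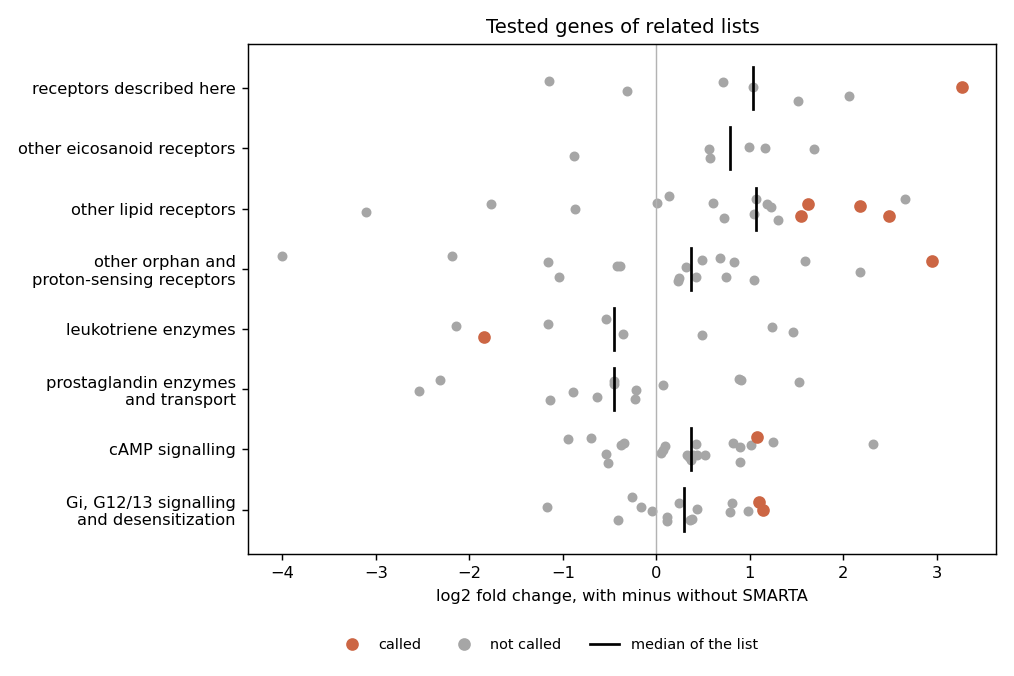
Log2 fold change (with minus without SMARTA) of the tested genes of the receptor set and 7 related lists, 1 point per gene, with called genes coloured and a bar at the median of each list; vertical position within a list carries no value. Medians were 1.03 for the receptor set and 1.07 for other lipid receptors, and negative for the enzymes of leukotrienes (−0.45) and prostaglandins (−0.46).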

How the data were processed

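Read pairs were counted per gene name over GENCODE M17 exons (GRCm38.p6) by the authors with featureCounts 1.6.2, without strand, and pairs matching several genes or places were left out, per the file headers; the submitters' processing notes also name STAR 2.6.0c. The deposited values are raw counts, not normalized. The RNA was amplified from sorted cells with SMART-seq V4, per the labels' protocols.

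Libraries were grouped by title. Genes were kept by filterByExpr (minimum count 10, minimum total 15), scaled with TMM and compared, 4 libraries without against 3 with SMARTA, by a robust quasi-likelihood fit in edgeR 4.0.16 (R 4.3.3), two-sided, adjusted over all 15896 genes; standard errors were derived from the F statistic. A prior count of 2 entered log2 CPM, and the EP receptor ratio a pseudocount of 0.5. Marker sums use plain library totals. Of 4 receptor ratios planned 1 was computed, since Gpr18 and Ptgdr gave no counts to compare. The older row names Adrbk1 and Adrbk2 were used for Grk2 and Grk3.

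Members and lists were chosen with earlier results of these data known. The text names all members, up to 4 called genes of each list or, with none called, the 2 of smallest p, and like genes by the measure described. Alternatives were RLE factors, plain totals, 2 other filters, DESeq2 1.42.0, limma-voom (limma 3.58.1), no robust estimation, a replicate block and each library left out. On simulated counts (15248 genes, 200 changed) edgeR found 75% of the changes of 4-fold, 8% of those of 2-fold, and 2 false calls. DESeq2 found 96%, 33% and 50. Counts were drawn for each gene on its own, without effects shared by the genes of a library, so these figures need not hold for the real libraries. The changed genes were drawn from those with a mean above 5 CPM. Ltb4r1 and Gpr15 lay below that level over all libraries, so these shares do not describe them. Within a group no library was a second sequencing of another: chi-square divided by its degrees of freedom was 93.5 to 444. This cannot tell separate mice from separate amplifications of the same cells.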

Additional observations from a re-analysis of the deposited data

Results flagged for a closer look

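The log2 ratio of Ptger2 to Ptger4 counts in replicate 4 without SMARTA, 4.23, lay apart from the 3.43, 3.47 and 3.42 of replicates 1, 2 and 3: its gap to the nearest, as a share of the range of the group, exceeded Dixon's limit for 4 values. Chance alone flags about 1 in 20 groups, and 9 groups were looked at, of which that of Ptgdr, with 0 counts throughout, could not be flagged.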

How the results depend on the processing

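Only Ltb4r1 was called with all libraries, against 2 members with plain library totals, 2 with no filter, 3 when genes had to reach CPM 5 in 3 libraries (where Ltb4r1 was not tested) and 5 by DESeq2; with 1 library left out the number was 0 to 3. Over all genes the 500 calls became 842 with that filter and 1741 by DESeq2, and 17 to 907 with 1 library left out. Ptger2 passed with plain totals (−1.31), the stricter filter (−1.24) and DESeq2 (−1.15). Gpr183 passed with no filter (1.49), the stricter filter (1.42) and DESeq2 (1.52), Gpr171 with the stricter filter (0.94) and DESeq2 (1.03), and Gpr55 by DESeq2 (2.08). Gpr15 reversed to −0.39 by limma-voom and to −1.12 without replicate 3 with SMARTA. With 1 library left out, log2 fold changes ran from 2.69 to 3.61 for Ltb4r1, 0.99 to 1.82 for Gpr183 and 0.69 to 1.24 for Gpr171. They ran from 1.13 to 2.50 for Gpr55, −1.12 to 1.28 for Gpr15, −1.47 to −0.93 for Ptger2 and −1.01 to −0.006 for Ptger4. With the replicate number as a block, 0 members and 0 genes were called and Ltb4r1 was at 3.30 (edgeR adjusted p = 0.447). Deviations from the group mean correlated over genes at −0.139, 0.0263 and −0.274 between same-numbered libraries. Between differently numbered libraries of the 2 groups they correlated at −0.0862 to 0.254. The labels do not say what the number stands for, and these values cannot settle whether it pairs the samples. Gpr15, with 0 to 67 counts per library, and Ptgdr, with 0 counts, allow no firm statement on a difference. The causes of these differences were not tested.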

Other observations

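Gpr171 belongs to a row of receptor genes on chromosome 3 that lie on the minus strand inside the span of Med12l. P2ry14, a receptor for UDP-sugars, was at 24.5, 16.5, 7.21 and 13.4 CPM in replicates 1 to 4 without SMARTA and at 22.0, 61.1 and 127 CPM in replicates 1, 2 and 3 with it; the groups overlapped through replicate 1 with SMARTA (2.18 on the log2 scale, edgeR adjusted p = 0.082). P2ry13 was at 4.20 ± 2.36 and 8.67 ± 4.33 CPM, and P2ry12 at 5.02 ± 3.65 and 6.73 ± 0.71 CPM (SD). Med12l itself, on the plus strand, was at 12.1 ± 3.00 and 26.1 ± 13.7 CPM (1.12, edgeR adjusted p = 0.185). In P2ry14, Med12l and Gpr171 alike, replicate 3 with SMARTA was the highest library.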
